A study of Mus musculus with 12 samples.

Results

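The genes described here encode the potassium channels and their named subunits. They are the 95 gene symbols of the form Kcn followed by a letter, out of 23183 symbols in the deposited tables, and each was also found by symbol in the GENCODE M21 annotation of mm10. The form takes 98 symbols, and 3 of them, Kcne2, Kcnj13 and Kcnj8, which mark choroid plexus and pericytes in brain tissue, were left out. Members were sorted into subfamilies by symbol. The rule uses no measured value, although the set was chosen with earlier results of these data known.

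The libraries came from 6 male C57BL/6 mice, an inbred strain without any engineered allele in the labels. X-rays were directed at the abdomen of 3 of them as a model of lasting gut injury, with 13 Gy in the library names, and the other 3 mice were not irradiated. Hippocampus and prefrontal cortex were taken from every mouse, which gave 12 RNA-seq libraries in 4 groups of 3 mice: control hippocampus, irradiated hippocampus, control prefrontal cortex and irradiated prefrontal cortex. Neither the age of the mice nor the time after irradiation is stated, beyond a chronic phase. The brain was not the target of the beam, and the study asked how the 2 regions differ in their response to a damaged gut.

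Potassium channels let potassium ions leave or enter a cell along their gradient, and so set the resting potential, end the action potential and space the spikes of a neuron. Voltage-gated (Kv) channels open on depolarisation, calcium- and sodium-activated channels open when those ions rise inside the cell, inward rectifiers hold the membrane near rest, and K2P channels carry the leak. Most pores are tetramers whose subunits may be mixed within a subfamily, and cytoplasmic partners (Kv beta and KChIP proteins) change their gating and surface number. Pyramidal cells, interneurons and glia of hippocampus and cortex use different sets of these genes.

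Levels are FPKM (sequenced fragments per kilobase of transcript and per unit of library size, so a level per length), given for mice 1, 2 and 3 in that order or as mean ± SD over 3 mice. Differences are on the log2(FPKM + 1) scale with their SE, from limma's test over all genes whose mean over the compared libraries reached 1 FPKM, with Benjamini-Hochberg adjustment over all of these genes and a threshold of 0.05. Adding 1 shrinks the differences of genes at low FPKM. Region differences are hippocampus minus prefrontal cortex, so a positive value is higher in hippocampus. Where 2 differences or adjusted p-values are given together, the first is of control and the second of irradiated mice. Depth was estimated at 15.6 to 18.9 M (mega) fragments a library, and relative depth ran from 0.856 to 1.04.

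Of the 95 members, 69 averaged 1 FPKM or more across the 12 libraries. 32 of them lay between 1 and 10 FPKM, 32 between 10 and 50 FPKM and 5 above 50 FPKM. The highest was Kcnab2, a cytoplasmic beta subunit of Kv1 channels, at 184 FPKM. It was followed by Kcnip2, a calcium-binding KChIP partner of Kv4 pores, at 68.9 FPKM. Kcnj4, a strong inward rectifier, had a mean of 54.0 FPKM and Kcnab1, another Kv1 beta subunit, of 50.6 FPKM. Genes of auxiliary subunits thus held 3 of the 5 highest places. At the other end 15 members lay between 0.1 and 1 FPKM, 9 above 0 but at most 0.1 FPKM, and Kcnk16 and Kcnmb3 were listed at 0 in all 12 libraries.

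Summed over all members, potassium channel genes took 0.281% to 0.341% of a hippocampal library's total FPKM and 0.333% to 0.399% of a prefrontal cortex library's. The ranges overlap because the hippocampal library of irradiated mouse 2 lies above the prefrontal cortex library of control mouse 3.

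**Figure D1:**
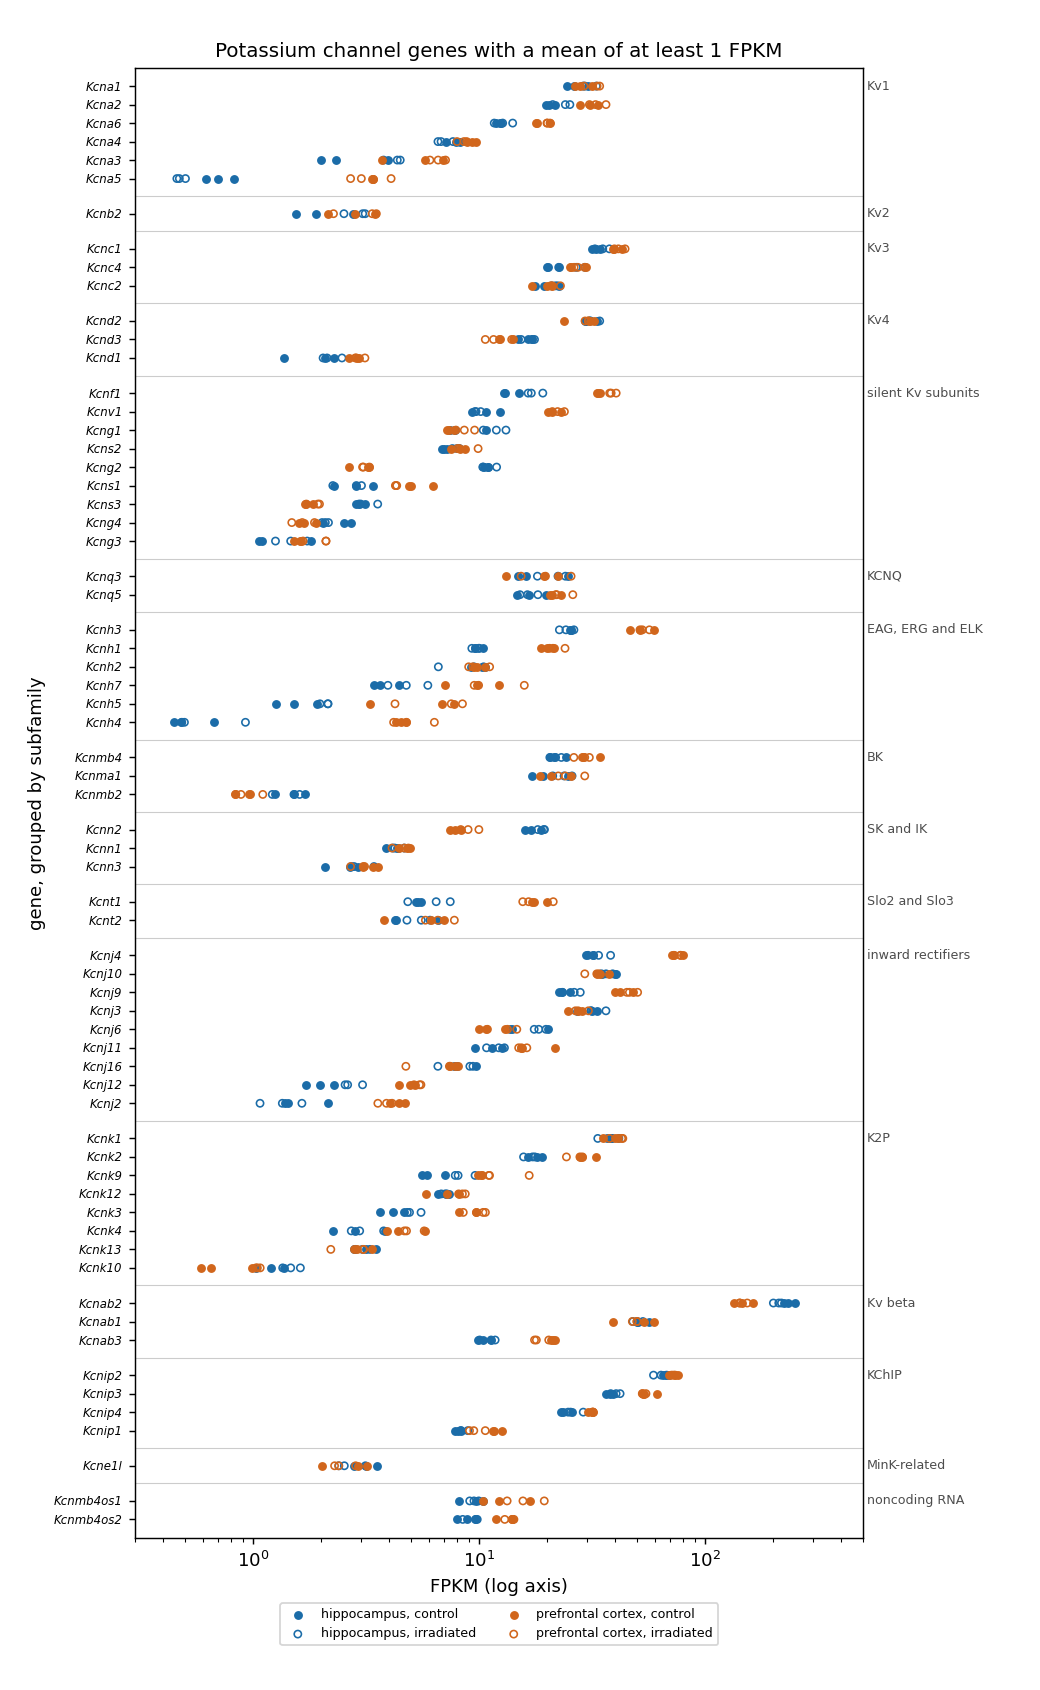
Level of 65 of the 69 potassium channel genes that averaged 1 FPKM or more, with FPKM on a log axis and genes grouped by subfamily. Points are the 12 libraries, blue for hippocampus and orange for prefrontal cortex, filled for control and open for irradiated mice. Kcnab2 stands highest in all 12 libraries, and orange points lie to the right of blue ones in 31 of the 65 genes without overlap, a share that was not counted over all genes.

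The region labels were checked against marker genes. Of 7 dentate and CA neuron markers, 6 were higher in hippocampus in both sets of mice, and of 7 cortical layer markers, 6 were lower. The prefrontal cortex libraries also held striatal neuron markers: all 8 were lower in hippocampus, and their summed level ran from 715 to 932 FPKM in prefrontal cortex and from 69.3 to 119 FPKM in hippocampus, with none at 0. Myelin markers (7 of 7), astrocyte markers (5 of 7) and ependymal markers (6 of 6) were higher in hippocampus in both sets of mice, and meningeal markers in 3 of 7 in control and 6 of 7 in irradiated mice. Endothelial markers were lower in hippocampus in 6 of 7 in control mice and in 0 of 7 in irradiated mice, and pericyte and smooth muscle markers in 3 of 6 and 0 of 7. Of 7 inhibitory neuron markers (Pvalb, Gad1, Gad2, Lhx6, Sst, Tac1 and Cox6a2) 2 were lower in hippocampus in control and 3 in irradiated mice. Of 7 microglial markers 1 was higher in hippocampus in irradiated mice. Choroid plexus markers summed to between 3114 and 5834 FPKM in 5 hippocampal libraries, to 64.9 FPKM in hippocampus of irradiated mouse 2 and to at most 65.5 FPKM in prefrontal cortex. The prefrontal cortex maximum was that of control mouse 3, and the next was 5.70 FPKM. These marker levels differ in the same comparisons as the channel genes below, and their part in those differences was not tested. In bulk tissue fewer cells of a type and less RNA per cell cannot be told apart.

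Hippocampus and prefrontal cortex were compared in control mice and, separately, in irradiated mice. In control mice 68 members were tested, and 34 were lower in hippocampus, 9 were higher and 25 did not pass. Of all 12923 genes tested, 30.3% passed in either direction, 14.6% lower and 15.7% higher in hippocampus. In irradiated mice 69 members were tested, 35 were lower in hippocampus, 8 were higher and 26 did not pass, against 29.2% of 12878 genes, 15.3% lower and 13.9% higher. The members' median difference was -0.32 in control and -0.24 in irradiated mice, while that of all genes was 0.0051 and 0.00011. Among tested members, the 3 control hippocampi and the 3 control prefrontal cortices did not overlap in 47, 38 lower and 9 higher in hippocampus, where 45.7% of all genes did not. The irradiated ones did not in 51, 37 lower and 14 higher, where 44.8% did not. Over all 6 mice and all 95 members, untested ones included, 33 were higher in prefrontal cortex without overlap, 8 were higher in hippocampus and 54 overlapped. The 6-mouse share was not counted over all genes, so these counts have no background beside them.

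The smaller count, of members higher in hippocampus, moved with single libraries in control mice. It was 4 instead of 9 without hippocampus 3 or without prefrontal cortex 3, the prefrontal cortex library with the highest choroid plexus marker sum, and 5 without hippocampus 1, while the count lower in hippocampus stayed between 30 and 33 over all 6 omissions. Without hippocampus 2 of the irradiated mice, the library low in choroid plexus markers, 7 members were higher and 35 lower in hippocampus in those mice, and the median was -0.30.

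Which members passed was largely shared by the separate sets of mice. Of 68 members tested in both, 39 passed in both with the same sign, 32 higher in prefrontal cortex and 7 in hippocampus, against 22.1% of the 12740 genes tested in both (11.6% and 10.5%). These 39 are 90.7% of the 43 called in control mice and 90.7% of the 43 called in irradiated mice. Over all genes, 2813 passed in both with the same sign, against 3922 called in control and 3758 called in irradiated mice. The sign was the same for 65 of the 68 members. Neither that share nor the correlations at the end of this paragraph were computed over all genes. 4 members passed in control mice and not in irradiated mice (Kcnip1, Kcnc4, Kcng4 and Kcnmb2) and 4 the reverse (Kcnmb4os1, Kcng1, Kcnk12 and Kcna4), but a test of the difference between the sets of mice, given below with the irradiation effects, called 0 members. The region differences of the members had a Pearson correlation of 0.976 and a Spearman correlation of 0.968 between control and irradiated mice (n = 68 genes, which are not independent replicates; no library is shared, but the dissection and the transcript of each gene are).

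**Figure D2:**
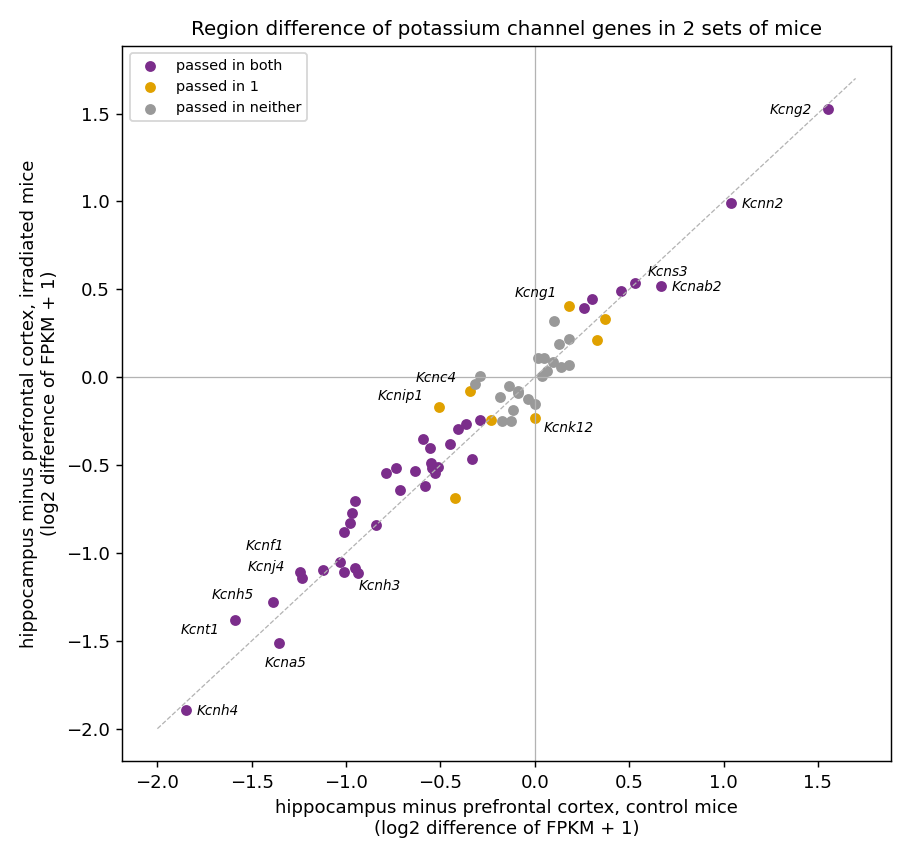
Region difference of 68 potassium channel genes, log2 difference of FPKM + 1 in control mice on the horizontal axis and in irradiated mice on the vertical axis, with the dashed line of equal values. Purple points passed in both sets of mice, yellow in 1 and grey in neither, and Kcng2 at 1.55 and 1.53 and Kcnh4 at -1.85 and -1.89 mark the ends.

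3 members, Kcna5, Kcnh4 and Kcnmb2, reached the level filter through 1 region only, so that a region difference was built into their testing. With at least 1 FPKM required in both regions, 8 members were higher and 32 lower of 65 in control mice, where 28.8% of genes passed, and 8 higher and 33 lower of 66 in irradiated mice, where 28.2% passed.

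The ether-a-go-go group (EAG, ERG and ELK channels, Kcnh genes), voltage-gated channels with slow or unusual gating that influence firing threshold and adaptation, had 5 of its 6 tested members lower in hippocampus in both sets of mice. That count includes Kcnh4, which reached the level filter through prefrontal cortex only. Beside each subfamily count stand the shares of all genes in control and irradiated mice, 14.6% and 15.3% lower and 15.7% and 13.9% higher. In control mice the group's 8 genes summed to 51.6 ± 1.64 FPKM in hippocampus against 103 ± 4.91 FPKM in prefrontal cortex, and in irradiated mice to 51.1 ± 1.06 against 109.6 ± 11.8 FPKM (SD, n = 3). Kcnh4 measured 0.480, 0.669 and 0.446 FPKM in hippocampus of the control mice against 4.74, 4.49 and 4.28 FPKM in their prefrontal cortex, and 0.495, 0.923 and 0.482 against 4.76, 6.33 and 4.18 FPKM in the irradiated mice. Every cortical value of this ELK channel (chromosome 11, 100740376 to 100759942) was above 4 FPKM and every hippocampal value below 1 FPKM. The log2 differences were -1.85 ± 0.10 in control mice (adjusted p = 2.36e-06) and -1.89 ± 0.16 in irradiated mice (adjusted p = 1.08e-04), the largest of all members.

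Kcnh3, the ELK channel with the highest level of the group, averaged 24.8 FPKM over the 6 hippocampi against 52.9 FPKM over the 6 prefrontal cortices, the order in which all pairs of means below are given. In the control mice Kcnh3 was at 25.4, 25.3 and 25.3 FPKM (hippocampus) and 59.3, 51.3 and 46.4 FPKM (prefrontal cortex), and in the irradiated mice at 22.6, 26.2 and 24.2 and 52.7, 56.6 and 51.4 FPKM. The hippocampal values of the control mice had a coefficient of variation of 0.22%, and no hippocampal value came near a cortical one. Its log2 differences were -1.01 and -1.11 (adjusted p = 3.01e-05 and 2.46e-05). Kcnh1, an EAG channel, averaged 9.79 against 20.9 FPKM, with differences of -0.95 and -1.09 (adjusted p = 2.01e-05 and 3.48e-05). Kcnh5, the other EAG channel, averaged 1.82 against 6.34 FPKM (-1.39 and -1.28, adjusted p = 0.00200 and 0.00228). Its cortical level varied most between mice, at 3.28, 7.75 and 6.85 FPKM in control and 4.24, 8.42 and 7.51 FPKM in irradiated mice, but every one lay above every hippocampal value. Kcnh7, an ERG channel, averaged 4.35 against 10.7 FPKM (-1.12 and -1.10, adjusted p = 8.27e-04 and 0.00404). Kcnh2, the ERG channel best known from the heart, was the exception at 9.41 against 9.89 FPKM, with differences of 0.0022 and -0.15 (adjusted p = 0.988 and 0.502).

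The Kv1 channels, low-threshold channels of axons and terminals, had no member higher in hippocampus in either set of mice. 4 of 6 tested were lower in control and 5 of 6 in irradiated mice, counting Kcna5, which reached the level filter through prefrontal cortex only. Kcna1, the most abundant of them and a pore of axonal membranes beside the node, averaged 28.7 against 30.4 FPKM and did not pass (-0.091 and -0.077, adjusted p = 0.515 and 0.524). Kcna2, which assembles with Kcna1, passed in both, at 22.0 against 32.0 FPKM (-0.55 and -0.49, adjusted p = 6.93e-04 and 0.00401). Kcna5 was the most unequal. Kcna5 measured 0.614, 0.696 and 0.820 FPKM in hippocampus of the control mice against 3.34, 3.38 and 3.38 FPKM in their prefrontal cortex, and 0.470, 0.501 and 0.459 against 3.01, 2.69 and 4.07 FPKM in the irradiated mice. The cortical values of the control mice were within 0.05 FPKM of each other, and the highest hippocampal value was 0.820 FPKM. The differences were -1.35 ± 0.10 in control mice (adjusted p = 9.71e-06) and -1.51 ± 0.13 in irradiated mice (adjusted p = 1.27e-04). Kcna4, an inactivating pore, passed in irradiated mice (-0.24 ± 0.077, adjusted p = 0.0479) and not in control mice (-0.23 ± 0.080, adjusted p = 0.0536). With the mouse as a block it passed in control mice (adjusted p = 0.0439) and did not in irradiated mice (adjusted p = 0.0559), and leaving out any 1 library other than hippocampus 2 ended the call in irradiated mice (adjusted p = 0.0525 to 0.142). Kcna6 and Kcna3 were lower in hippocampus in both sets, at 12.5 against 19.5 FPKM (-0.58 and -0.62) and 3.47 against 6.02 FPKM (-0.79 and -0.54).

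Their beta subunits split between the regions. In the control mice Kcnab2 was at 249, 223 and 232 FPKM (hippocampus) and 162, 145 and 134 FPKM (prefrontal cortex), and in the irradiated mice at 200.2, 212 and 217 and 142, 153 and 142 FPKM. Kcnab2 (chromosome 4, 152390742 to 152477871) was higher in hippocampus by 0.67 ± 0.080 in control mice (adjusted p = 2.42e-04) and 0.52 ± 0.064 in irradiated mice (adjusted p = 6.92e-04), and all 6 hippocampal values lay above all 6 cortical ones. Kcnab3 went the other way, at 10.8 against 19.9 FPKM (-0.95 and -0.70, adjusted p = 1.29e-05 and 5.29e-04). Kcnab1 stood at 51.3 and 49.9 FPKM and did not pass (0.064 and 0.033, adjusted p = 0.770 and 0.716).

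Of the Kv2 pores, which carry delayed rectifier current in neuronal cell bodies, Kcnb2 averaged 2.48 and 2.92 FPKM and did not pass (-0.31 and -0.041, adjusted p = 0.201 and 0.857).

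The silent Kv subunits form no channel of their own and change the gating of Kv2 pores. They held large differences in opposite directions, with 3 of 9 tested members higher and 3 lower in hippocampus in each set of mice. Kcng2 measured 10.98, 10.9 and 10.54 FPKM in hippocampus of the control mice against 2.65, 3.25 and 3.22 FPKM in their prefrontal cortex, and 10.4, 10.4 and 11.9 against 3.26, 3.07 and 3.04 FPKM in the irradiated mice. All 6 hippocampal values of Kcng2 exceeded 10 FPKM and no cortical value reached 4 FPKM, a ratio of means of 3.52. Its differences, 1.55 ± 0.087 in control mice (adjusted p = 2.75e-06) and 1.53 ± 0.077 in irradiated mice (adjusted p = 9.22e-06), were the largest toward hippocampus. Kcns3 was also higher in hippocampus, at 3.07 against 1.81 FPKM (0.53 and 0.53, adjusted p = 0.00174 and 0.00444). Kcng1 passed in irradiated mice, with 0.40 ± 0.10 (adjusted p = 0.0169) against 0.18 ± 0.12 in control mice (adjusted p = 0.296). The call was lost without hippocampus 1 (adjusted p = 0.0611), prefrontal cortex 1 (0.0616) or prefrontal cortex 3 (0.0511) of the irradiated mice. Kcng4 passed as higher in hippocampus in control mice only. That call was lost without control hippocampus 1 or 3 or control prefrontal cortex 2 or 3 (adjusted p = 0.111 to 0.156). A pseudocount of 0.1, no level filter and equal totals each ended it too (adjusted p = 0.0511 to 0.0700).

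Kcnf1, Kcnv1 and Kcns1 were the silent subunits higher in prefrontal cortex. In the control mice Kcnf1 was at 12.9, 15.01 and 13.03 FPKM (hippocampus) and 34.3, 33.6 and 33.1 FPKM (prefrontal cortex), and in the irradiated mice at 17.0, 19.1 and 16.5 and 40.3, 38.3 and 37.8 FPKM. Kcnf1 (chromosome 12, 17172100 to 17176888) thus lay below 20 FPKM in every hippocampal and above 30 FPKM in every cortical library, with differences of -1.25 ± 0.073 in control mice (adjusted p = 3.34e-06) and -1.11 ± 0.068 in irradiated mice (adjusted p = 2.28e-05). Kcnv1 averaged 10.3 against 21.9 FPKM (-0.94 and -1.11, adjusted p = 1.25e-04 and 1.70e-05) and Kcns1 2.77 against 4.83 FPKM (-0.73 and -0.52, adjusted p = 0.00233 and 0.00568).

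Kv3 channels, which let neurons fire fast by ending each spike quickly, include Kcnc1, Kcnc2 and Kcnc4. Kcnc1 was lower in hippocampus, at 34.0 against 41.0 FPKM (-0.29 and -0.24, adjusted p = 0.00854 and 0.0358). The call of Kcnc1 was lost in irradiated mice without any 1 library other than hippocampus 2 (adjusted p = 0.0515 to 0.115). Kcnc4 passed in control mice, at -0.34 ± 0.085 (adjusted p = 0.0141, or 0.0556 without hippocampus 1) against -0.077 ± 0.10 in irradiated mice (adjusted p = 0.601). Kcnc2 did not pass, with 0.036 and 0.0066.

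The Kv4 channels carry the A-type current of dendrites. Kcnd2, their main pore here, averaged 31.4 against 29.5 FPKM and did not pass (0.10 and 0.086, adjusted p = 0.565 and 0.323). Kcnd3 was higher in hippocampus. Kcnd3 measured 14.8, 17.0 and 16.4 FPKM in hippocampus of the control mice against 12.3, 14.1 and 12.2 FPKM in their prefrontal cortex, and 15.3, 17.2 and 17.5 against 10.6, 11.6 and 13.9 FPKM in the irradiated mice. Its regions did not overlap, although the lowest hippocampal value, 14.8 FPKM, was near the highest cortical one, 14.1 FPKM. The differences were 0.30 ± 0.083 in control mice (adjusted p = 0.0228) and 0.44 ± 0.10 in irradiated mice (adjusted p = 0.0124), and the call in control mice was lost without hippocampus 2 (adjusted p = 0.0965), hippocampus 3 (0.0660) or prefrontal cortex 3 (0.0772). Kcnd1, the least abundant Kv4 gene, was lower in hippocampus at 2.06 against 2.88 FPKM (-0.41 and -0.30, adjusted p = 0.0406 and 0.0426).

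The KChIP genes, partners of the Kv4 pores, had 3 of 4 members lower in hippocampus in control and 2 of 4 in irradiated mice, and none higher. Kcnip3 averaged 38.9 against 54.6 FPKM (-0.55 and -0.40, adjusted p = 3.55e-04 and 0.00132), and Kcnip4 25.2 against 31.5 FPKM (-0.36 and -0.27, adjusted p = 0.00295 and 0.0198). Kcnip2 was the steadiest member of the family within groups, and all its hippocampal values lay below all its cortical ones. In the control mice Kcnip2 was at 67.1, 65.2 and 68.9 FPKM (hippocampus) and 73.3, 69.1 and 75.7 FPKM (prefrontal cortex), and in the irradiated mice at 59.0, 67.4 and 63.7 and 70.9, 73.6 and 72.4 FPKM. The gap was small, at -0.11 and -0.19, and did not pass (adjusted p = 0.194 and 0.0548), while with the mouse as a block it passed in irradiated mice (adjusted p = 0.0207). Kcnip1 passed in control mice at -0.51 ± 0.073 (adjusted p = 6.89e-04) and not in irradiated mice at -0.17 ± 0.075 (adjusted p = 0.127).

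The KCNQ channels carry the M-current. Kcnq3 did not pass, at 20.0 and 19.2 FPKM (0.017 and 0.11, adjusted p = 0.965 and 0.692). Kcnq5 was lower in hippocampus, at 16.8 against 22.4 FPKM (-0.33 and -0.47, adjusted p = 0.0387 and 0.00637).

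Among channels gated by calcium, Kcnn2 stood apart. It is an SK pore, which opens on calcium alone and contributes to the pause after a spike. Kcnn2 measured 16.0, 16.9 and 18.7 FPKM in hippocampus of the control mice against 7.81, 8.31 and 7.42 FPKM in their prefrontal cortex, and 18.1, 19.4 and 19.3 against 9.96, 8.92 and 8.27 FPKM in the irradiated mice. Every hippocampal value was above 15 FPKM and every cortical value at or below 9.96 FPKM, a ratio of means of 2.14. The differences were 1.04 ± 0.081 in control mice (adjusted p = 1.80e-05) and 0.99 ± 0.075 in irradiated mice (adjusted p = 6.19e-05). The other SK genes, Kcnn1 and Kcnn3, did not pass, with -0.14 and -0.052 (adjusted p = 0.273 and 0.695) and -0.29 and 0.0054 (adjusted p = 0.0826 and 0.975). The large-conductance BK pore Kcnma1 did not pass, at 21.9 against 23.4 FPKM (-0.089 and -0.091, adjusted p = 0.692 and 0.584). Its neuronal beta subunit Kcnmb4 was lower in hippocampus, at 21.9 against 29.7 FPKM (-0.45 and -0.38, adjusted p = 0.00489 and 0.00655).

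Kcnmb4 overlaps the antisense RNA genes Kcnmb4os1 and Kcnmb4os2 on chromosome 10, and without a stated use of strand in the counting their fragments cannot be told apart. Kcnmb4os1 passed in irradiated mice, at -0.69 ± 0.12 (adjusted p = 0.00396), and not in control mice, at -0.42 ± 0.15 (adjusted p = 0.0663, or 0.00551 with the mouse as a block). Other members that overlap a neighbouring gene, and are uncertain in the same way, include Kcnab2 (with Nphp4), Kcnh1 (Hhat), Kcnh3 (Mcrs1), Kcnh7 (Gca), Kcnd3 (Kcnd3os) and Kcnip1 (Kcnmb1). Kcng2 and Kcnn2 also overlap genes on the opposite strand, which have clone or predicted names.

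Kcnt1, the sodium-activated Slack channel, which brakes firing as sodium builds up, came next to Kcnh4 in control mice in the size of its difference. In the control mice Kcnt1 was at 5.26, 5.33 and 5.54 FPKM (hippocampus) and 20.0, 17.1 and 17.5 FPKM (prefrontal cortex), and in the irradiated mice at 6.44, 7.44 and 4.83 and 16.5, 21.2 and 15.6 FPKM. Every cortical value was more than 15 FPKM and every hippocampal value less than 8 FPKM, and the ratio of the means was 3.10. The differences of Kcnt1 (chromosome 2, 25863734 to 25918273) were -1.59 ± 0.080 in control mice (adjusted p = 1.46e-06) and -1.38 ± 0.15 in irradiated mice (adjusted p = 4.52e-04). Kcnt2, which is also sodium-activated, did not pass, at 5.23 and 6.16 FPKM (-0.13 and -0.25, adjusted p = 0.686 and 0.146).

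Among the inward rectifiers, the strong rectifiers Kcnj4, Kcnj2 and Kcnj12, which clamp a neuron near rest, were all higher in prefrontal cortex. Kcnj4 measured 31.8, 31.9 and 29.8 FPKM in hippocampus of the control mice against 80.0, 72.8 and 71.1 FPKM in their prefrontal cortex, and 33.7, 38.1 and 30.3 against 77.6, 72.6 and 77.9 FPKM in the irradiated mice. No hippocampal value of Kcnj4 (chromosome 15, 79483714 to 79505241) reached 40 FPKM and no cortical value fell under 70 FPKM, and the differences were -1.23 ± 0.067 in control mice (adjusted p = 2.33e-06) and -1.14 ± 0.084 in irradiated mice (adjusted p = 5.54e-05). Kcnj2 averaged 1.498 against 4.11 FPKM (-1.03 and -1.05, adjusted p = 2.40e-04 and 3.47e-04) and Kcnj12 2.36 against 5.10 FPKM (-0.97 and -0.77, adjusted p = 1.18e-04 and 3.59e-04).

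The GIRK channels open when a G protein coupled receptor is active, and their 3 abundant subunits did not share a direction. Kcnj9 was higher in prefrontal cortex, at 24.8 in hippocampus against 45.2 FPKM (-0.84 and -0.84, adjusted p = 6.65e-05 and 1.80e-04). Kcnj6 was higher in hippocampus, at 17.2 against 12.1 FPKM (0.46 and 0.49, adjusted p = 0.0444 and 0.00932), and Kcnj3 did not pass, at 31.8 against 27.5 FPKM (0.18 and 0.22, adjusted p = 0.159 and 0.0760). The Kcnj6 call in control mice rested on single libraries: without hippocampus 1 or 3 or prefrontal cortex 1 or 3 its adjusted p lay between 0.0522 and 0.120, and without hippocampus 3 its difference fell from 0.46 to 0.28. Kcnj10 and Kcnj16, the rectifiers of astrocytes and oligodendrocytes, did not pass, with 0.13 and 0.19 (adjusted p = 0.258 and 0.0928) and 0.10 and 0.32 (adjusted p = 0.463 and 0.218). Kcnj16 passed in irradiated mice with the mouse as a block (adjusted p = 0.00974). Kcnj11, the pore of ATP-sensitive channels, was lower in hippocampus at 11.6 against 16.5 FPKM (-0.59 and -0.35, adjusted p = 0.0112 and 0.0107).

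No K2P leak channel passed as higher in hippocampus. 4 of 7 tested were lower there in control and 5 of 8 in irradiated mice. Kcnk1, the most abundant, did not pass, at 37.8 against 40.0 FPKM (-0.036 and -0.12, adjusted p = 0.757 and 0.356). The acid-sensitive TASK channels Kcnk3 and Kcnk9 were lower, at 4.61 against 9.49 FPKM (-0.98 and -0.83, adjusted p = 1.12e-04 and 5.42e-04) and 7.33 against 11.5 FPKM (-0.64 and -0.53, adjusted p = 6.81e-04 and 0.0327). The Kcnk9 call in irradiated mice was lost without hippocampus 1 (adjusted p = 0.0971) or 3 (0.0922). Kcnk2, a stretch-sensitive TREK channel, was lower at 17.3 against 28.4 FPKM (-0.71 and -0.64, adjusted p = 2.33e-04 and 6.47e-04). Kcnk12 passed in irradiated mice (-0.23 ± 0.063, adjusted p = 0.0278), and leaving out any 1 of the 6 libraries ended that call (adjusted p = 0.0511 to 0.0877). Its difference in control mice was 0.00013 ± 0.11 (adjusted p = 0.999). Kcnk4, another stretch-sensitive channel, was lower at 3.06 against 4.86 FPKM (-0.53 and -0.55), and Kcnk13 did not pass (0.049 and 0.11). The 1 MinK-related gene tested, Kcne1l, averaged 2.92 and 2.60 FPKM and did not pass (0.18 and 0.070, adjusted p = 0.358 and 0.681).

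None of the 26 members below 1 FPKM on average was tested in any of the comparisons. Among them were 6 K2P, 4 inward rectifier, 3 MinK-related and 2 each of the Kv1, EAG, ERG and ELK, BK and noncoding genes. The nearest to the filter were Kcnj14 at 0.893 FPKM and Kcnk6 at 0.815 FPKM below it, and Kcnk10 at 1.12 and Kcnmb2 at 1.20 FPKM above it. Kcnmb1, a BK beta subunit best known from smooth muscle, was the 1 of them whose regions did not overlap over 6 mice, at 0.546, 0.651 and 0.507 and 0.636, 0.389 and 0.458 FPKM in hippocampus against 0.0445, 0.112 and 0.220 and 0.10001, 0.209 and 0.181 FPKM in prefrontal cortex (control and irradiated mice).

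**Figure D3:**
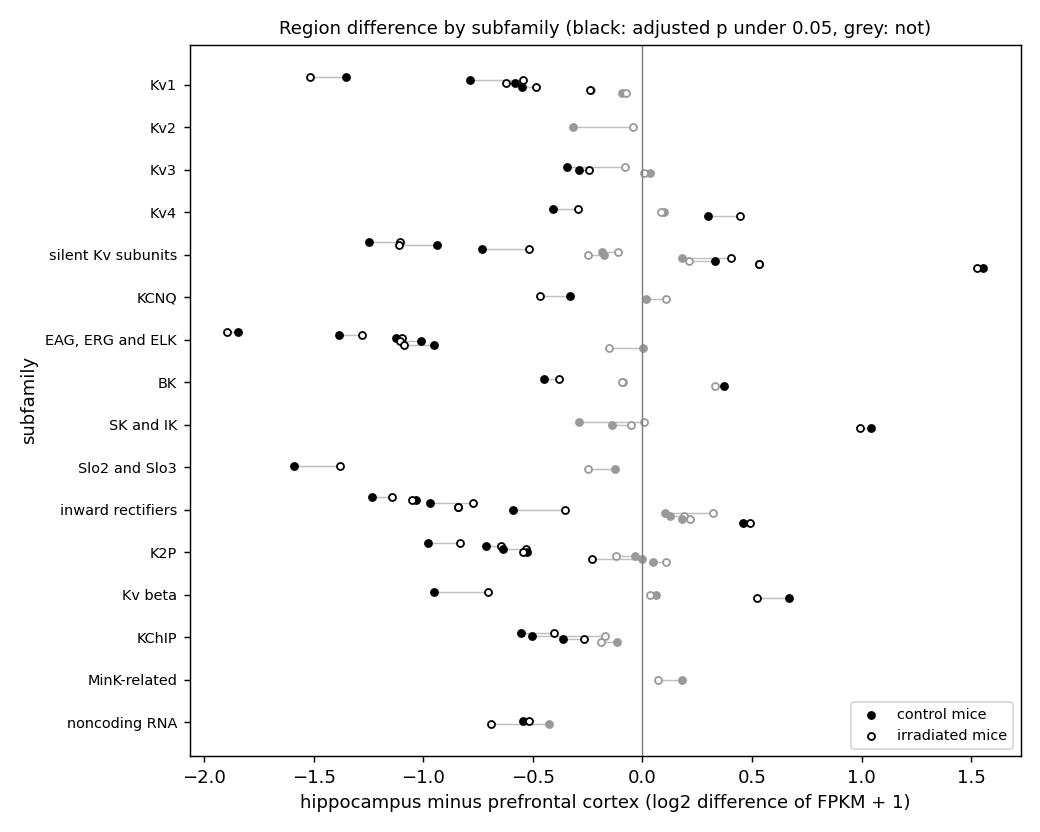
Region difference of 64 of the 68 tested potassium channel genes by subfamily, as log2 difference of FPKM + 1, hippocampus minus prefrontal cortex. Filled points are control and open points irradiated mice, joined for each gene, black where the adjusted p was under 0.05 and grey where not. The EAG, ERG and ELK group lies left of 0 apart from Kcnh2 in control mice, while silent Kv subunits lie on both sides.

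**Figure D4:**
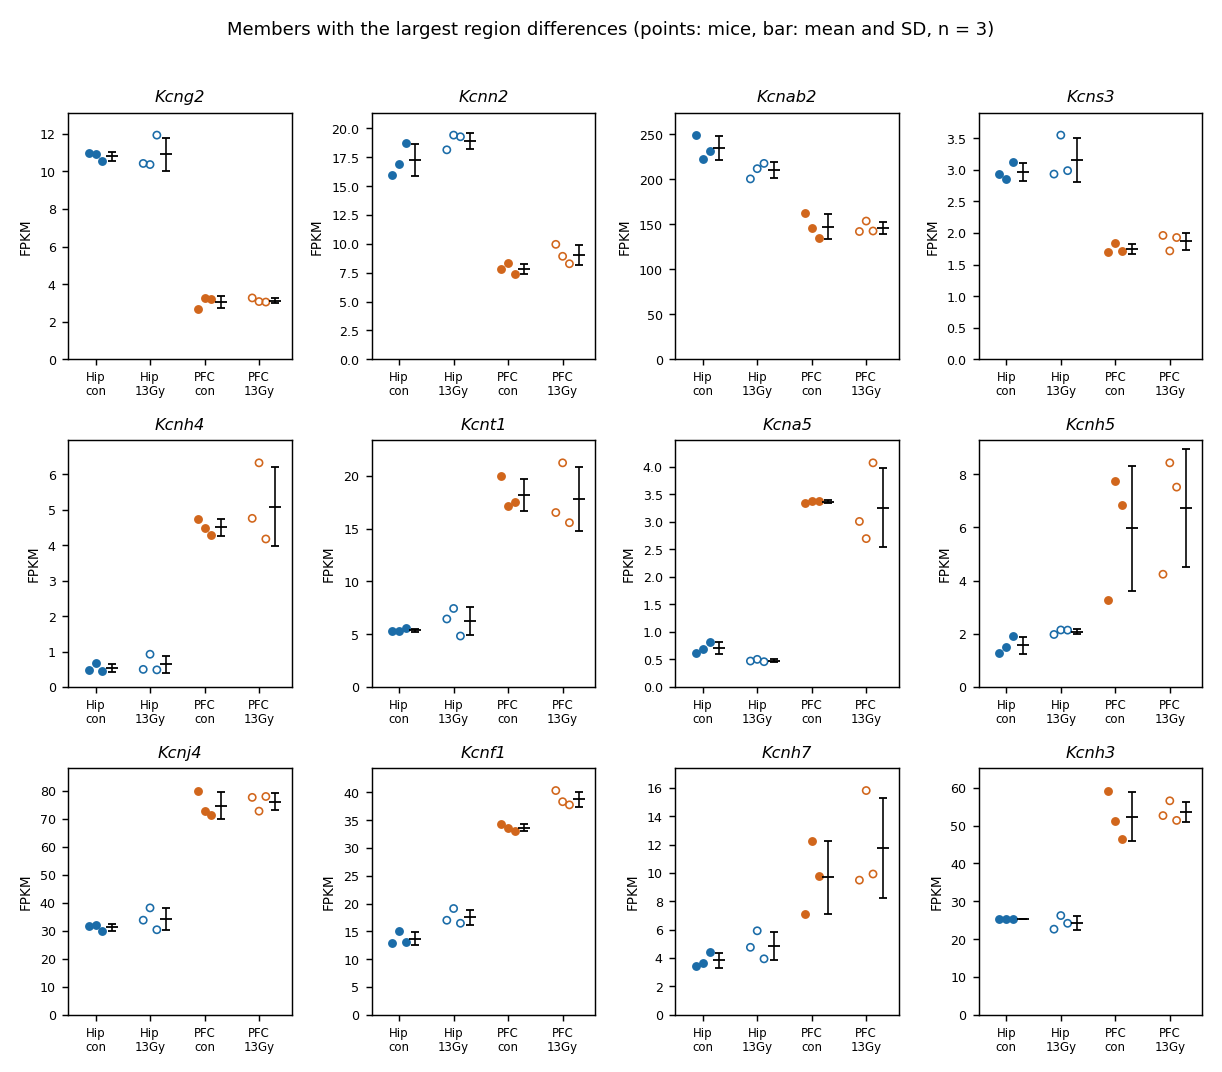
FPKM of 12 members with large region differences on linear axes that start at 0. Points are single mice and bars the mean and SD (n = 3), with Hip for hippocampus, PFC for prefrontal cortex, con for control and 13Gy for irradiated. In each panel all 6 hippocampal points lie on 1 side of all 6 cortical points.

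The largest differences toward prefrontal cortex included those of Kcnh4, Kcnt1, Kcna5, Kcnh5, Kcnj4, Kcnf1, Kcnh7, Kcnh3, Kcnj2, Kcnv1, Kcnh1, Kcnk3, Kcnj12 and Kcnj9. These 14 passed in both sets of mice under every alternative fit and every omission of 1 library, as did Kcng2, Kcnn2, Kcnab2 and Kcns3 toward hippocampus, but Kcnh4 and Kcna5 are not tested when 1 FPKM is required in both regions. Values for Kcnj6 and Kcnd3, which did not, are given above with the libraries that their calls depend on.

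The sequence before the start is shown so that it can be read beside the region values. It is given for Kcnh4 and Kcna5, whose differences toward prefrontal cortex were among the largest, beside Kcnd3, which was higher in hippocampus. The windows come from the table of RefSeq promoters (GRCm38.p6). These genes are examples only, and members with larger differences toward hippocampus than Kcnd3 are not shown. Each line is the 250 bases before the RefSeq start, 5′ to 3′ on the gene's strand, with a GC box (GGGCGG or its reverse complement) in capitals where there is one. The RefSeq start can differ from the gene limits given above, and part of the Kcnh4 window, with its GC box, lies inside those limits.
Kcnh4, chr11:100759779-100760028, minus strand: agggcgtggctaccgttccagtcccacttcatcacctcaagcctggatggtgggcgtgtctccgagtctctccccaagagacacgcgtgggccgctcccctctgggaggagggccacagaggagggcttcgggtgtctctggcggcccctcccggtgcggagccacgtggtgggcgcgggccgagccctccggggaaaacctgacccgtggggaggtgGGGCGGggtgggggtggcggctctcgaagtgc
Kcna5, chr6:126535556-126535805, minus strand: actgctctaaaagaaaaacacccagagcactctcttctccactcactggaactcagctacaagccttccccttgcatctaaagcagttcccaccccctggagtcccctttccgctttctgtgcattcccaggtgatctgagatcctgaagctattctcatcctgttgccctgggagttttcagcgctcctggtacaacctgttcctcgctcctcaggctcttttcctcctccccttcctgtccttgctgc
Kcnd3, chr3:105451640-105451889, plus strand: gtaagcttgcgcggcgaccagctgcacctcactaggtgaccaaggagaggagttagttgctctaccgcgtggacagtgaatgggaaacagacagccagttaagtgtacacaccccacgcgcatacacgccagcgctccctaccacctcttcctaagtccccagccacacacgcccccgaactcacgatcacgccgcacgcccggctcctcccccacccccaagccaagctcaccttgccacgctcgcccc
The Kcnh4 window held 1 GC box and 20 CpG, with a GC content of 70.8%. That of Kcna5 held 3 CpG at 53.2% and that of Kcnd3 18 CpG at 62.8%, both without a GC box. The table held 69 of the 95 symbols, with 93 windows of this length. A GC box on either strand was found in 45.2% of the members' windows and 32.7% of all 32851 windows, a TATA box (TATAAA) in 2.15% and 12.4%, a CCAAT box (CCAAT) in 30.1% and 33.8%, and a cyclic AMP response element (TGACGTCA) in 0 of the 93 and 1.55%. None of these motifs contains another. The median number of CpG was 8 in the members' windows and 6 in all windows. Of 29 windows, from 22 members higher in prefrontal cortex in both sets of mice, 48.3% had a GC box. Of 8 windows, from 4 members higher in hippocampus in both, 4 had one. Genes with several windows are thus counted more than once, and members without a window are left out.

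Irradiated and control mice were compared within each region next, and 0 members passed in either. In hippocampus 67 members were tested, and limma called 0 of 12947 genes (0%). At an unadjusted p under 0.05 there were 14 members, where 10.5% of all genes reached that level. 47 of the 67 differences were positive (higher in irradiated mice) and 20 negative, against 47% positive among all genes. The median was 0.076, and that of all genes -0.0093. Irradiated and control mice did not overlap in 9 of the tested members, 8 higher and 1 lower in irradiated mice, against 15.6% of all genes (7.41% higher and 8.16% lower). The smallest adjusted p of a member was 0.435.

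The 8 tested members with all irradiated hippocampi above all control hippocampi included Kcnf1, Kcnk9, Kcns2, Kcnk3, Kcnh5 and Kcnj12. Kcnf1 had the smallest p, at 12.9, 15.01 and 13.03 FPKM in control and 17.0, 19.1 and 16.5 FPKM in irradiated mice, a difference of 0.34 ± 0.081 (unadjusted p = 0.00318, adjusted p = 0.435). Kcnk9 stood at 5.58, 5.87 and 7.07 against 8.06, 9.58 and 7.82 FPKM, or 0.40 ± 0.10 (adjusted p = 0.462). Kcnj12 stood at 1.96, 2.27 and 1.71 against 3.04, 2.55 and 2.61 FPKM, or 0.33 ± 0.10 (adjusted p = 0.475). In these 3 genes the lowest irradiated value lay above the highest control value. Kcng1 was at 7.42, 10.7 and 7.84 and 13.1, 11.9 and 10.4 FPKM (0.42 ± 0.13, adjusted p = 0.475) and Kcnc4 at 20.1, 22.6 and 20.0 and 29.4, 26.9 and 22.5 FPKM (0.31 ± 0.10, adjusted p = 0.475), and in both the groups overlapped.

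Of the tested members, Kcnab2 was the 1 with every irradiated hippocampus below every control. It stood at 200.2, 212 and 217 FPKM in irradiated and 249, 223 and 232 FPKM in control mice, a difference of -0.16 ± 0.063 (unadjusted p = 0.0370, adjusted p = 0.475). Kcna5, below the level filter in hippocampus and so not tested there, ran from 0.459 to 0.501 FPKM in irradiated and 0.614 to 0.820 FPKM in control mice. The other negative differences of smallest p were -0.13 ± 0.082 for Kcna4, -0.18 ± 0.11 for Kcne1l, -0.15 ± 0.10 for Kcng4, another silent subunit, and -0.082 ± 0.060 for Kcnip2, with adjusted p from 0.553 to 0.595.

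The count of 14 members at an unadjusted p under 0.05 ranged from 3, without irradiated hippocampus 1, to 20, without control hippocampus 3, with 0 called throughout. Without control hippocampus 1 it was 5, without irradiated hippocampus 2 it was 6, without control hippocampus 2 it was 8, and with mouse numbers as a block 9. With every library scaled to the same total, 60 of the 67 differences were positive, against 71% of all genes. Cortical layer markers summed to 60.6 to 71.3 FPKM in irradiated and 54.6 to 60.0 FPKM in control hippocampi (all 7 markers above 0 in each library), and endothelial markers to 71.4 to 83.5 against 34.9 to 48.0 FPKM, with 7 of 7 differences positive. Pericyte and smooth muscle markers summed to 64.7 to 79.3 against 40.8 to 57.0 FPKM, with 6 of 6 positive, and 0 of 8 choroid plexus and 0 of 6 ependymal differences were positive. None of these markers passed the adjusted threshold, and their part in the differences of the channel genes was not tested.

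In prefrontal cortex 67 members were tested, 44 differences were positive and 23 negative, against 51.2% positive of all genes, and the median was 0.061 (all genes 0.0035). limma called 1 of 12729 genes (0.00786%), which is no member. At an unadjusted p under 0.05 there were 5 members, where 7.23% of all genes reached that level. Without irradiated prefrontal cortex 2 that count was 2, without control prefrontal cortex 3 it was 3, without control prefrontal cortex 2 it was 8 and with equal totals 9. The median ran from 0.021, without irradiated prefrontal cortex 2, to 0.082, without control prefrontal cortex 2, and was 0.028 without control prefrontal cortex 1. With every library scaled to the same total 53 of the 67 differences were positive, against 71.6% of all genes.

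Endothelial markers summed to 83.3 to 97.2 FPKM in irradiated and 65.7 to 71.5 FPKM in control prefrontal cortices, with 7 of 7 differences positive and none at 0 in any library. Meningeal markers summed to 19.8 to 31.5 against 30.7 to 35.8 FPKM, with 0 of 6 differences positive. Neither list had a member past the adjusted threshold, and their part in the differences of the channel genes was not tested.

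Irradiated and control mice did not overlap in 9 of the tested members, 5 higher (Kcnf1, Kcng1, Kcnk9, Kcnk12, Kcng3) and 4 lower (Kcnab3, Kcnip1, Kcna4, Kcns1), against 13.7% of all genes. Kcnk10, below the level filter in prefrontal cortex and so not tested there, ran from 0.588 to 0.991 FPKM in control and 1.03 to 1.07 FPKM in irradiated mice. Kcnip1 had the smallest p, at 11.6, 11.5 and 12.6 FPKM in control and 9.45, 9.05 and 10.6 FPKM in irradiated mice. Its difference was -0.27 ± 0.083 (unadjusted p = 0.0102, adjusted p = 0.527). Kcnf1 stood at 34.3, 33.6 and 33.1 against 40.3, 38.3 and 37.8 FPKM, or 0.20 ± 0.065 (adjusted p = 0.536). Irradiated mice were thus on 1 side of the controls in both genes, below for Kcnip1 and above for Kcnf1. Kcns1 was at 6.25, 4.87 and 4.99 and 4.31, 4.25 and 4.28 FPKM (-0.26 ± 0.10, adjusted p = 0.604) and Kcnab3 at 21.2, 21.6 and 20.8 and 17.6, 17.9 and 20.3 FPKM (-0.18 ± 0.076, adjusted p = 0.638).

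The remaining cortical differences of smallest p were 0.20 ± 0.087 for Kcng1, 0.30 ± 0.14 for Kcnk9, 0.23 ± 0.11 for Kcnk12 and 0.18 ± 0.088 for Kcnn2 on the positive side, and -0.24 ± 0.14 for Kcnj16 and -0.15 ± 0.092 for Kcnj2 on the negative side. None of them passed (adjusted p from 0.685 to 0.792). Kcnf1, Kcng1 and Kcnk9 were among the 5 positive members of smallest p in each region, with differences of 0.34, 0.42 and 0.40 in hippocampus and 0.20, 0.20 and 0.30 in prefrontal cortex. The same 6 mice gave both sets of values.

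**Figure D5:**
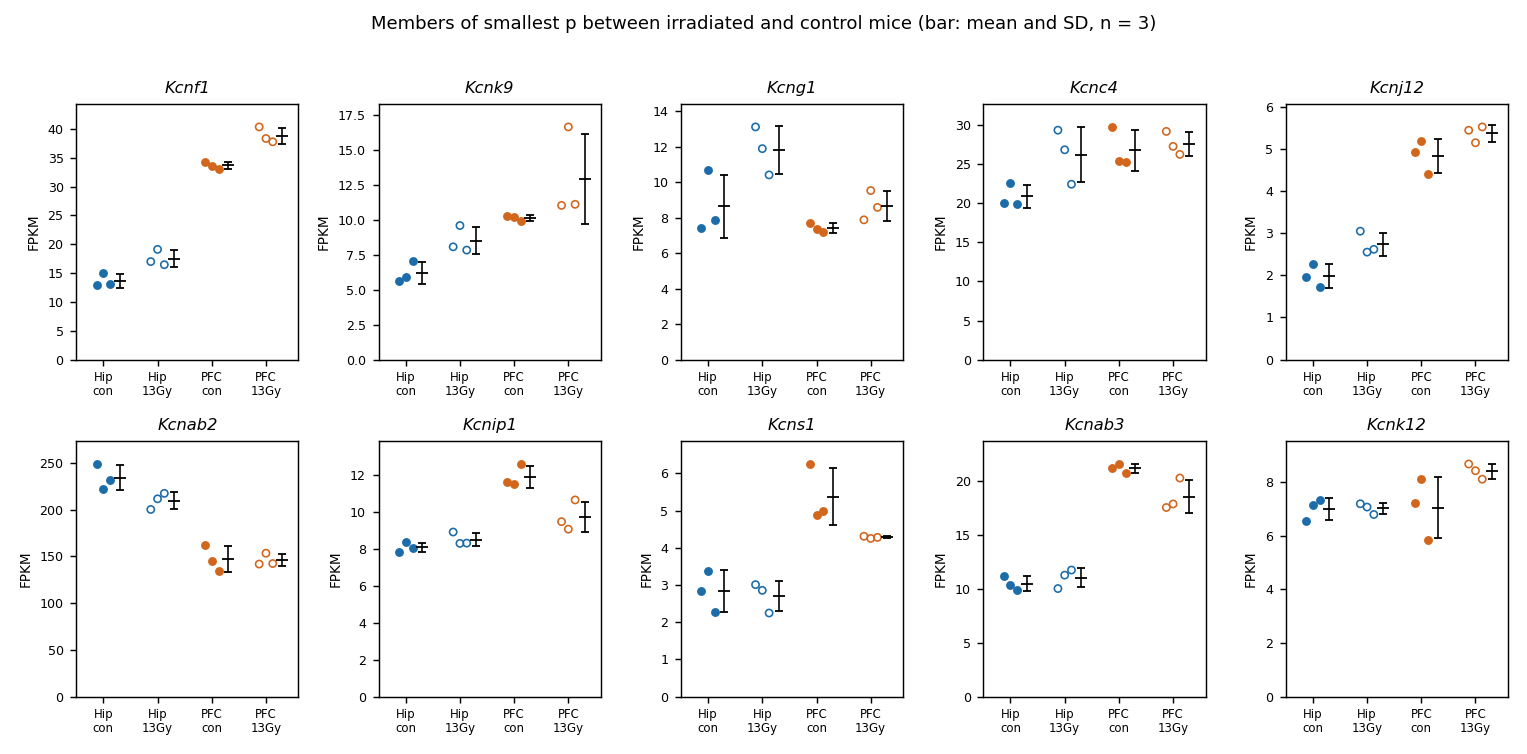
FPKM of 10 members among those of smallest p between irradiated and control mice, on linear axes that start at 0. Points are single mice and bars the mean and SD (n = 3), with Hip for hippocampus, PFC for prefrontal cortex, con for control and 13Gy for irradiated. Kcnf1 lies higher in irradiated mice in both regions and Kcnip1 lower in prefrontal cortex, and no difference in either region passed the adjusted threshold.

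The difference between the irradiation effects of the regions (hippocampus minus prefrontal cortex) was tested over all 12 libraries. 0 of 69 members and 0 of 12894 genes passed (0%), and 2 members had an unadjusted p under 0.05, where 3.27% of all genes did. For Kcnip1 the effect was 0.066 ± 0.064 in hippocampus and -0.27 ± 0.083 in prefrontal cortex, and their difference 0.33 ± 0.10 (unadjusted p = 0.00507, adjusted p = 0.9998). For Kcnab3 the difference was 0.25 ± 0.11 (unadjusted p = 0.0366). The other positive values of smallest p were 0.29 for Kcnn3, 0.27 for Kcnc4 and 0.15 for Kcnip3, and the negative ones -0.23 for Kcnk12, -0.15 for Kcnab2, -0.17 for Kcnv1, -0.14 for Kcnh1 and -0.26 for Kcnmb4os1. The median over the members was 0.025, and that of all genes -0.0052.

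Genes of partner proteins and the related HCN pacemaker channels were followed as a list of 27. In control mice 23 were tested, 11 lower and 3 higher in hippocampus, where 14.6% of all genes were lower and 15.7% higher, and in irradiated mice 24, with 9 lower and 4 higher, where 15.3% and 13.9% were. Dpp10, a membrane partner of Kv4 pores, had the smallest p in both, at -1.61 ± 0.10 (adjusted p = 3.72e-06) and -1.27 ± 0.074 (adjusted p = 1.71e-05). The control mice gave 12.6, 16.2 and 13.5 FPKM in hippocampus against 41.4, 47.2 and 46.1 FPKM in prefrontal cortex, with no overlap. Lrrc55, a BK auxiliary subunit, was lower in hippocampus, with differences of -0.72 and -0.76. Between irradiated and control mice 0 of 24 partners passed in hippocampus (19 positive, where 47% of all genes were) and 0 of 24 in prefrontal cortex (16 positive, where 51.2% were). The smallest p in hippocampus was that of Dpp10, at 0.39 ± 0.092 (adjusted p = 0.435), followed by Abcc9, a subunit of ATP-sensitive channels, at 0.37 ± 0.10 (adjusted p = 0.475). Abcc9 is also counted in the list of pericyte and smooth muscle markers. Among the smallest in prefrontal cortex were Pex5l at 0.18 ± 0.069 and Adam23 at 0.20 ± 0.13 (adjusted p = 0.604 and 0.796). For the difference between the regions' effects they were Dpp10 at 0.34 ± 0.13, Lgi2 at 0.42 ± 0.25 and Hcn3 at 0.23 ± 0.15 (each adjusted p = 0.9998).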

How the data were processed

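RNA was extracted with Trizol and libraries built with a strand-marking NEBNext Ultra II kit, per the labels' protocols. The submitters' processing notes name TopHat and mm10, without versions. No source used here gives the counting tool, the annotation or the use of strand. Each library is a deposited table of gene symbol and value. The deposited values were taken as FPKM: they are not whole, and value times transcript length summed to between 1.20 and 1.25 M (mega) in each library. Depth was estimated from the steps of low values and 317 genes of known length, since read counts were not used here.

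Groups follow the titles, and each of the 3 libraries of a group is from another mouse, so p-values measure the spread between mice. limma 3.58.1 (R 4.3.3) was fitted with a mean-variance trend on log2(FPKM + 1) over the groups compared, and was checked on simulated data. All tests are two-sided. The 5 comparisons were the regions in control and in irradiated mice, irradiation in each region, and the difference of its effects. Alternatives were a pseudocount of 0.1, no level filter, equal totals, median ratio scaling, robust moderation, 1 fit over all groups, the mouse as a block, leaving out each library and, added after the data were seen, removing each library's trend with transcript length.

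Members, lists and tests were chosen with earlier results of these data known. Named are the most abundant member of each subfamily, up to 15 members a direction called in both region comparisons, up to 5 called in only 1, the 5 of smallest p a direction in each irradiation comparison, and the 3 partner genes of smallest p, except that some genes are counted but not reported here. Kcna2, Kcnq3 and other relatives named beside them to complete a subfamily were chosen after their values were seen. The titles number the mice, and libraries of the same number and treatment come from 1 mouse. Their deviations from the group means, over 12894 genes, correlated between the regions by 0.29, -0.0060 and 0.054 in control and 0.17, 0.26 and 0.30 in irradiated mice. Libraries of different numbers gave -0.21 to 0.17 in control and -0.22 to -0.036 in irradiated mice. In control mice these values thus do not set equal numbers apart from different ones.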

Additional observations from a re-analysis of the deposited data

How the results depend on the processing

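Without the level filter the members' median region difference was -0.092 in control and -0.11 in irradiated mice, with the near-silent genes counted too, and with a pseudocount of 0.1 it was -0.37 in control mice. Leaving out 1 library gave medians from -0.34 to -0.26 in control mice and from -0.30 to -0.20 in irradiated mice. The 9 members higher in hippocampus in control mice became 4 to 7, with 4 without control hippocampus 3 or control prefrontal cortex 3 and 5 without control hippocampus 1, and the cause was not tested. Equal totals moved the irradiation medians to 0.15 in hippocampus and 0.13 in prefrontal cortex, and those of all genes to 0.068 and 0.071. The median difference of irradiation effects ran from -0.0091 to 0.076 without 1 library, highest without control prefrontal cortex 1. With the mouse as a replicate block 9 members were higher and 36 lower in hippocampus in control mice and 11 and 35 in irradiated mice. Among members named by the rule given above, the block changed the calls of Kcnmb4os1, Kcna4, Kcnip2 and Kcnj16 only. Relatives named beside them were not followed by name over the settings, and further calls among the 11, against 8 as reported, are of such members. The smallest adjusted p of a member ranged over the settings from 0.162 to 0.922 in hippocampus and 0.312 to 0.923 in prefrontal cortex between irradiated and control mice, with 0 called throughout. Mouse numbers as a block, which join different animals there, left 9 and 11 members at an unadjusted p under 0.05. Of the calls of members named by the rule, 23 were lost and 7 gained over the settings in control mice and 37 lost and 4 gained in irradiated mice, while 572 and 561 kept their side, and no sign turned among them. Counts per gene are not known, so no counting error can be given.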

Other observations

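The median coefficient of variation over groups was 8.64% for the median member of the 69 at 1 FPKM or more, from 3.68% for Kcnip2 to 26.8% for Kcnh5, and was under 10% for 42 of them.

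The deviation of a library's members from the mean of its group's other libraries moved with transcript length. Over 69 members, Spearman's rho with length was -0.48 in control hippocampus 1, 0.43 in control hippocampus 3, -0.45 in irradiated prefrontal cortex 1 and 0.58 in irradiated prefrontal cortex 2, and over 12431 genes -0.38, 0.35, -0.28 and 0.35 in the same libraries. The irradiation difference itself had a rho with length of 0.28 in hippocampus and 0.19 in prefrontal cortex over 67 members, and of 0.43 and 0.36 over all genes with a length. Members had a median transcript length of 4047 bases and all genes of 3469 bases in the hippocampal comparison. These are descriptions across genes, which share their libraries.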
